A study of Homo sapiens with 10 samples.

Results

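The 48 genes described here encode the machinery that copies the genome in S phase, together with the enzymes that supply its nucleotides and the regulators that start it. They were chosen by symbol from a list of S-phase genes and make up 48 of the 58174 genes in the deposited table. Expression was measured by RNA sequencing in the human neuroblastoma line SH-SY5Y, an established, catecholaminergic and proliferating line, in 10 libraries of 4 groups. For the knockdown, siRNA pools were transfected at 50 nM for 96 hours, with a second dose at 24 hours, and 3 libraries targeted TDP-43 (siTDP-43) while 3 received the control pool (siControl). For the genotype comparison, genome-edited cells homozygous for mutant TDP-43 N352S gave 2 libraries and TDP-43 wild-type cells gave 2. The series text speaks of biological replicates and the labels name neither clones nor cultures, so the tests here rest on library-to-library spread, and whether an edited genotype is 1 clone is not stated. TDP-43, encoded by TARDBP, binds RNA in the nucleus and governs splicing and polyadenylation. The study asked how gene expression changes when TDP-43 is lost or mutated, and here the question is put to the replication genes.

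Replication begins in G1 phase, when the origin recognition complex (ORC) binds DNA and, with CDC6 and CDT1, loads rings of MCM2 to MCM7, the core of the replicative helicase. At the start of S phase the kinase CDC7 and cyclin E kinase activity convert the rings into active helicases with CDC45 and the GINS proteins, and the polymerase alpha and primase complex lays down primers that polymerases delta and epsilon extend. Replication factor C (RFC) loads the sliding clamp PCNA, and replication protein A (RPA) coats the exposed single strand. Many of these genes are transcribed at the G1 to S transition under E2F transcription factors, which the retinoblastoma protein holds back. Genes of G2 phase and mitosis are transcribed later, from promoters in which the cell cycle homology region and CCAAT boxes recur.

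Promoter letters were looked up because most of these genes are known E2F targets. RefSeq (GRCh38.p14) gave a promoter window, the 250 bases before and 50 bases after the transcription start, for 41 of the 48 genes. The letters TTTGGCGC, TTTCGCGC, TTTCCCGC or TTTGCCGC, written here as the E2F motif and searched on both strands with overlaps allowed, were present in a window of 23 of the 41 genes (56.1%), beside 3.99% of all 27305 genes with a window. The same letters were in 26.5% of 34 replication genes outside the 48 and 11.1% of the 18 G2 and mitosis genes with a window. The letters TTTGAA or TTCGAA of the cell cycle homology region were present in 7.32% of the 41 genes, 61.1% of the G2 and mitosis genes and 19.5% of all genes. CCAAT was present in 58.5%, 83.3% and 39.7%. In the 34 replication genes outside the 48, the shares for these 2 motifs were 8.82% and 55.9%. The 5 windows printed below, with E2F motif letters in capitals, belong to genes called lower in 1 of the comparisons. They run 5′ to 3′ along the gene's strand, a match on the other strand reads as the reverse complement, and they were chosen after the values were seen. MCM6 (chr2:135876394-135876693, minus strand) held the motif at 4 places that overlap as 2 pairs, MCM7 (chr7:100101348-100101647, minus strand) at 2 places, and GINS3 (chr16:58392221-58392520, plus strand) at 1 place. MCM7 also has windows at chr7:100100705-100101004 and chr7:100100480-100100779, which are not printed and held no E2F motif. RFC5 (chr12:118016453-118016752, plus strand) and MCM10 (chr10:13161308-13161607, plus strand) held none. Windows of the other called genes are not printed.
MCM6: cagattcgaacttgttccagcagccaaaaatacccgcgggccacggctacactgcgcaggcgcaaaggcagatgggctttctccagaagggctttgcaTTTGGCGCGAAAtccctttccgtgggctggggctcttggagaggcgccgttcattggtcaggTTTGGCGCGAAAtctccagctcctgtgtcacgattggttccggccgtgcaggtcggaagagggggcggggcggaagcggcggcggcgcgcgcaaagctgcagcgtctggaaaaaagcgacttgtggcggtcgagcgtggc
MCM7: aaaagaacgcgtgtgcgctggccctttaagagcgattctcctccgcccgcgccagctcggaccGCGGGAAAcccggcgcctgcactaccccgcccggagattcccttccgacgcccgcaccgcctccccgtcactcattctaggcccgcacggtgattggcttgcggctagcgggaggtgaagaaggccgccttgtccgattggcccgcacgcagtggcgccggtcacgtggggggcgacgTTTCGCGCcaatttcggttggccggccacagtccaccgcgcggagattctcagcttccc
GINS3: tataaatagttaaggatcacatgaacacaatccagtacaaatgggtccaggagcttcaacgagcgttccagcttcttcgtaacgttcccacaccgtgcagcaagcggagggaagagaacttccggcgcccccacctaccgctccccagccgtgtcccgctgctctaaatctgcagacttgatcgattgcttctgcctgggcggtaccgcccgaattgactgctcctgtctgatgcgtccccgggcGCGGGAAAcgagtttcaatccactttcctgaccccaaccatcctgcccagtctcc
RFC5: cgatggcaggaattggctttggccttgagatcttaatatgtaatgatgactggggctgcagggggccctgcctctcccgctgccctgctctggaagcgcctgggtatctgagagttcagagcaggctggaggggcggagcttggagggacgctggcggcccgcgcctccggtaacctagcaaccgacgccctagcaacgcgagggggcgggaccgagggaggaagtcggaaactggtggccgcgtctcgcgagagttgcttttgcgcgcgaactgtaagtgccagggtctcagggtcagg
MCM10: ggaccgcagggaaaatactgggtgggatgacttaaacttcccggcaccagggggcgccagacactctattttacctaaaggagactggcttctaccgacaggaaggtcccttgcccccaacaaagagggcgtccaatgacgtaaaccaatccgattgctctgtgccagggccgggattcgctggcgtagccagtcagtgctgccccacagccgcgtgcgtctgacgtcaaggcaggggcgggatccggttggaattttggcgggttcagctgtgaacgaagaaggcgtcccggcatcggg
Of the 12 genes that were lower after knockdown, 9 had a window and 4 of these held the motif, against 19 of 32 among the genes that were not called. Of the 5 genes that were lower in N352S cells, 3 had a window and all 3 held it, against 20 of 37 among the genes that were not called. These counts describe letters, and binding was not measured.

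TARDBP gave 62.3, 63.1 and 67.7 TPM (transcript abundance per length, scaled to the same total in each library) in siTDP-43 cells, against 256, 256 and 256 TPM in siControl cells, which is 25.2% of the control mean. It gave 123 and 122 TPM in N352S cells, against 196 and 205 TPM in wild-type cells, which is 61.1% of the wild-type mean. TPM carry no depth, so depth is unknown and limits the precision to what the replicates show. Correlation of log2(TPM + 1) between libraries of a group ranged from 0.977 to 0.99 across genes, and 16711 to 17398 genes reached 1 TPM per library. All 10 noradrenergic neuroblast markers were detected, though TH, an enzyme of catecholamine synthesis, was low at 0.36 to 3.42 TPM. Of 7 markers of other cells (blood, liver, epithelium, endothelium and glia), 4 stayed under 1 TPM in every library. The 7 together summed to 2.2 to 6.6 TPM, and EPCAM gave 4.44 and 4.52 TPM in N352S cells.

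All 48 replication genes were expressed in every library and all passed the filter of a mean of 1 TPM. Their means over the 10 libraries ranged from 13.6 TPM for CCNE2, a cyclin E, to 373.6 TPM for MCM7, with a median of 60.5 TPM. Replicates were close. The median SD over the genes was 3.95% of the mean in siTDP-43, 5.07% in siControl, 4.57% in N352S and 3.66% in wild-type libraries, and the largest was 24.2% (GINS4, a helicase activator, in N352S). The fit's 95% interval for a log2 difference had a median half-width of 0.13 in the knockdown and 0.16 in the N352S comparison.

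After TDP-43 knockdown RFC5, RPA3, MCM6 and MCM10 fell under each of the 21 alternatives tried, 8 other replication genes fell in the fit reported here but not under each alternative, and most of the list did not pass. Of the 48 genes, 12 were lower in siTDP-43 cells, none was higher and 36 did not pass the test (limma, Benjamini-Hochberg adjusted p under 0.05 over 17118 tested genes). That is 25.0% lower, beside 19.8% of all tested genes lower and 6.19% higher, and the median log2 difference was -0.08 both for the 48 genes and for all tested genes. At an unadjusted p under 0.05, 18 of the 48 differed. The size of the calls was small, with log2 differences between -0.43 and -0.13. In 20 genes all 3 siTDP-43 libraries lay below all 3 siControl libraries, and in 3 genes above them, beside 31.7% and 11.9% of all tested genes. In bulk libraries a smaller share of cells in S phase and less RNA per cell cannot be told apart. The mitochondrially encoded genes took 16.2%, 15.7% and 15.5% of all TPM in siTDP-43 cells and 14.3%, 13.7% and 12% in siControl cells. With these genes left out and TPM rescaled, 7 replication genes were lower and 1 was higher, beside 15.3% and 7.99% of all tested genes. Under median-of-ratios scaling 6 were lower and 3 higher (CCNE2, GINS2 and GINS3), beside 12.1% lower and 11.4% higher of all tested genes, and the median of the 48 became 0.01. The 6 still lower were RFC5, RPA3, MCM6, MCM10, CCNE1 and RPA2, which also stayed called with any single library left out (adjusted p of at most 0.043). The count of lower genes was 7 without siTDP-43 library 2, siTDP-43 library 3 or siControl library 3. Of all tested genes, 15%, 14.9% and 16.1% were then lower.

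**Figure D1:**
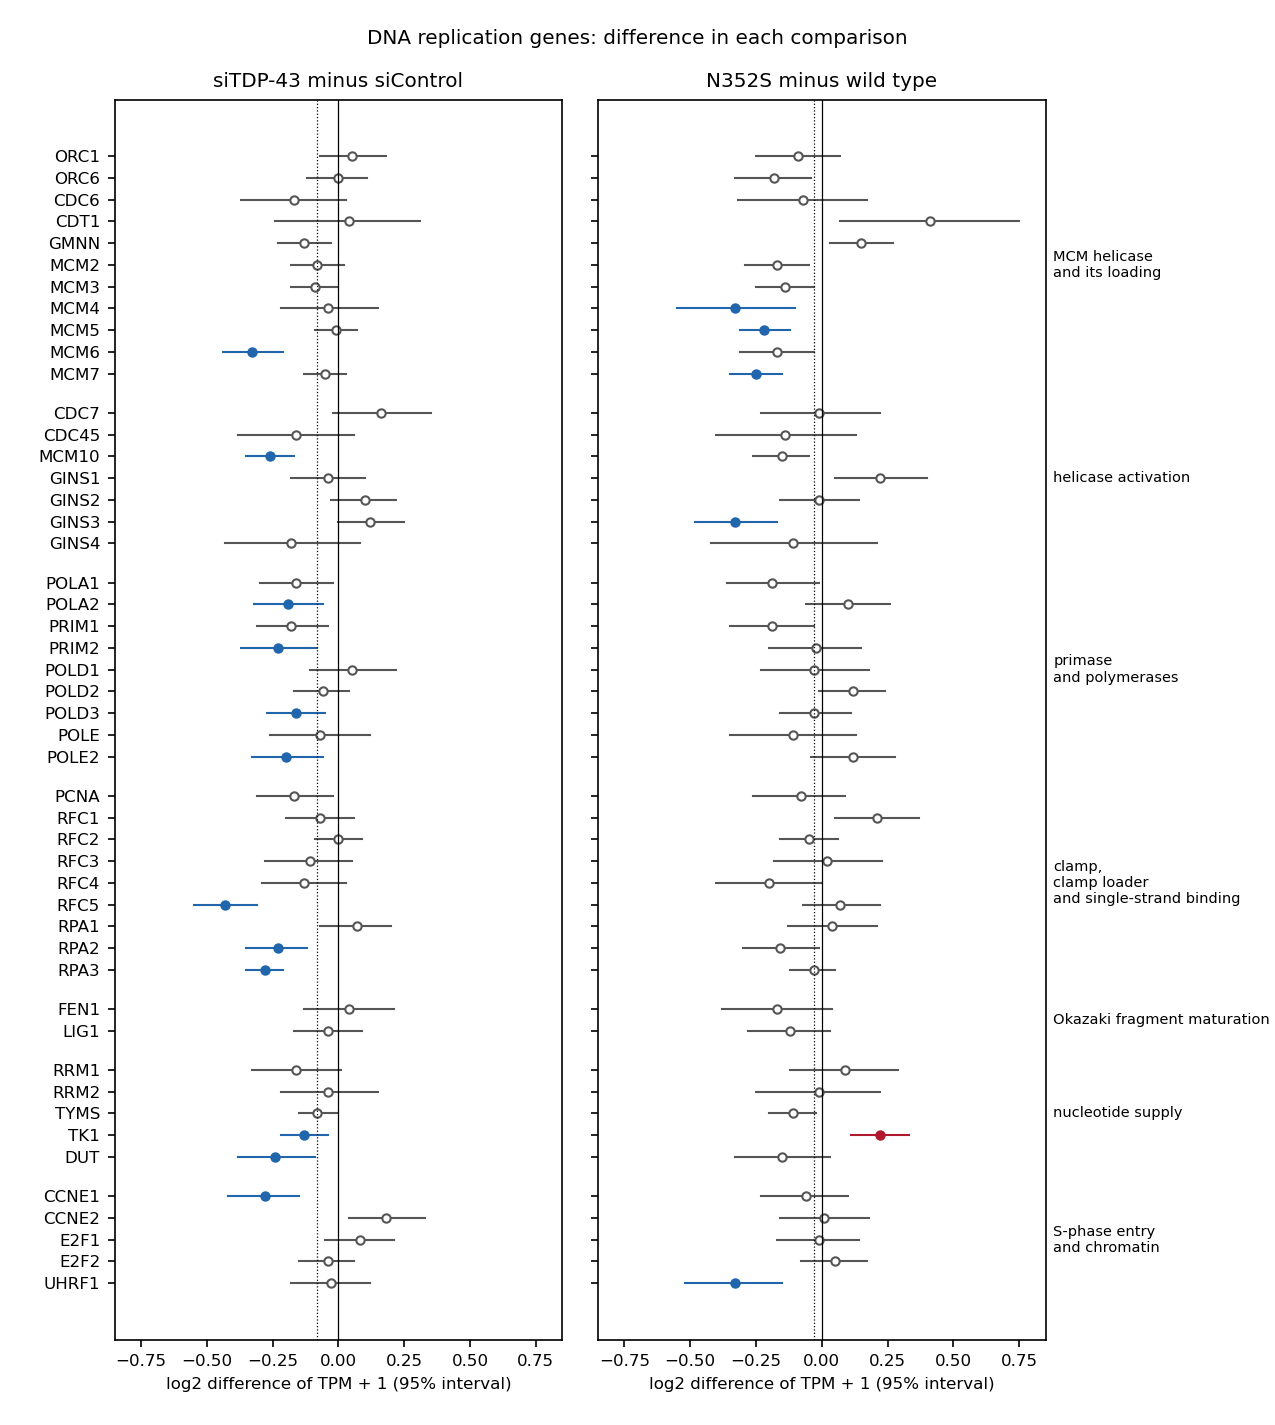
Log2 difference in TPM + 1 of the 48 replication genes, grouped by role, for siTDP-43 minus siControl (left) and N352S minus wild type (right). Points are fitted differences with 95% intervals as lines, filled blue for genes lower and filled red for genes higher at adjusted p under 0.05, and the dotted line is the median of all tested genes (-0.08 and -0.03). Filled points number 12 on the left and 6 on the right.

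Among the genes of helicase loading and activation, MCM6 and MCM10 fell. That is 1 of 11 loading genes (9.09%) and 1 of 7 activation genes (14.3%), beside 19.8% of all tested genes lower. MCM6, a subunit of the helicase ring, gave 86.3, 88.2 and 84.4 TPM in siTDP-43 cells, against 103, 108 and 115 TPM in siControl cells. No siTDP-43 value of MCM6 reached the control range (log2 difference -0.33 ± 0.05, adjusted p = 0.0019). MCM10, which helps the helicase start, gave 38.4, 39.2 and 38.8 TPM in siTDP-43 cells, against 45.7, 46.7 and 47.3 TPM in siControl cells. These groups also stood apart, with an SD of 0.406 TPM in siTDP-43 and 0.834 TPM in siControl cells (log2 difference -0.26 ± 0.04, adjusted p = 0.0017). The other 5 subunits of the ring did not pass the test, and their log2 differences ran from -0.09 in MCM3 to -0.01 in MCM5. MCM5 gave 107, 109 and 105 TPM in siTDP-43 cells, against 105, 109.8 and 109 TPM in siControl cells, so the groups overlapped, and its 95% interval was -0.09 to 0.07. The loaders ORC1, ORC6, CDC6 and CDT1 and the activators CDC7, CDC45 and GINS1 to GINS4 did not pass either. GMNN encodes geminin, which binds CDT1 and blocks loading outside G1, and gave 82.1, 80.8 and 79.2 TPM in siTDP-43 cells, against 85.7, 87.2 and 92.9 TPM in siControl cells. Its siTDP-43 libraries all lay below the controls, but the difference missed the threshold (log2 difference -0.13 ± 0.04, adjusted p = 0.052).

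Of the 9 clamp, clamp loader and single-strand binding genes, 3 fell (33.3%), beside 19.8% of all tested genes lower. Among the 48 genes, RFC5 had the largest knockdown difference and RPA3 the smallest adjusted p. RFC5, a small subunit of the clamp loader (chromosome 12, 118013588 to 118033130 on GRCh38), gave 33.6, 36.0 and 37.7 TPM in siTDP-43 cells, against 47.2, 50.1 and 47.8 TPM in siControl cells. The groups were far apart relative to their spread, at 35.8 ± 2.08 TPM in siTDP-43 and 48.4 ± 1.55 TPM in siControl cells (SD, n = 3 each; log2 difference -0.43 ± 0.05, adjusted p = 6.3e-04). RFC1 to RFC4, the other subunits of the same complex, gave log2 differences between -0.13 and 0.00 and none passed. RPA3, the smallest subunit of the single-strand binding trimer, gave 161, 161 and 158 TPM in siTDP-43 cells, against 192, 198 and 196 TPM in siControl cells (log2 difference -0.28 ± 0.03, adjusted p = 3.5e-04). RPA2, the middle subunit, gave 95.7, 104 and 102 TPM in siTDP-43 cells, against 115, 115 and 125 TPM in siControl cells (log2 difference -0.23 ± 0.05, adjusted p = 0.011). RPA1, the large subunit, gave 92.7, 105 and 94.4 TPM in siTDP-43 cells, against 99.9, 89.1 and 89.6 TPM in siControl cells. Its groups overlapped, its 95% interval was -0.07 to 0.20 and it did not pass. PCNA, the sliding clamp, gave 257, 261 and 265 TPM in siTDP-43 cells, against 274, 278 and 330.0 TPM in siControl cells. All 3 siTDP-43 values of PCNA were below the controls, and the difference passed when the replicate number entered as a block (adjusted p = 0.047, against 0.088 without it). Strand-specific counting is not stated, and 17 of the 48 genes overlap another gene of at least 1 TPM, 15 of them on the opposite strand. RFC5 shares 437 bases with WSB2 on the opposite strand, which was higher after knockdown (log2 difference 0.16, adjusted p = 0.016). RPA3 lies opposite UMAD1 over 77897 bases, and UMAD1 had a log2 difference of -0.03.

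Of the 9 primase and polymerase genes, 4 fell (44.4%), beside 19.8% of all tested genes lower. PRIM2, the large primase subunit, gave 17.5, 18.1 and 18.4 TPM in siTDP-43 cells, against 21.4, 20.0 and 22.4 TPM in siControl cells (log2 difference -0.23 ± 0.06, adjusted p = 0.029). POLA2, a subunit of polymerase alpha, gave 58.0, 64.8 and 60.2 TPM in siTDP-43 cells, against 72.0, 72.5 and 65.2 TPM in siControl cells, and its lowest control value was only just above the highest siTDP-43 value (log2 difference -0.19 ± 0.06, adjusted p = 0.037). POLE2 is the second subunit of polymerase epsilon. It gave 23.0, 21.1 and 22.0 TPM in siTDP-43 cells, against 25.0, 25.1 and 26.1 TPM in siControl cells (log2 difference -0.20 ± 0.06, adjusted p = 0.036; 0.059 with the block). POLD3, an accessory subunit of polymerase delta, gave 21.2, 22.4 and 21.7 TPM in siTDP-43 cells, against 23.6, 25.3 and 24.3 TPM in siControl cells (log2 difference -0.16 ± 0.05, adjusted p = 0.045; 0.058 with the block). The siTDP-43 and control values of PRIM2, POLE2 and POLD3 did not overlap, but the gaps were small. The calls of PRIM2, POLA2, POLE2 and POLD3 were lost under median-of-ratios scaling, and without 4 to 7 of the 10 libraries in turn (adjusted p up to 0.14), each siTDP-43 and siControl library among them for at least 1 of these genes. The catalytic subunits POLA1, POLD1 and POLE did not pass, with log2 differences of -0.16 ± 0.06, 0.05 ± 0.07 and -0.07 ± 0.09. PRIM1, the catalytic primase subunit, had a log2 difference of -0.18 ± 0.06 (adjusted p = 0.055), and its adjusted p was 0.035 with the block. POLD2 was not called (-0.06 ± 0.04). FEN1 and LIG1, which trim and join Okazaki fragments, had overlapping groups and log2 differences of 0.04 ± 0.07 and -0.04 ± 0.06.

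Among the nucleotide enzymes, DUT and TK1 fell. DUT removes dUTP, and gave 206, 203 and 208 TPM in siTDP-43 cells, against 229, 236 and 264 TPM in siControl cells (log2 difference -0.24 ± 0.06, adjusted p = 0.025). TK1, the thymidine kinase of the salvage route, gave 70.2, 72.4 and 74.6 TPM in siTDP-43 cells, against 76.9, 79.8 and 81.3 TPM in siControl cells (log2 difference -0.13 ± 0.04, adjusted p = 0.037). The groups did not overlap in either gene, and TK1 had the smallest difference of the 12 called genes. Both calls were lost under median-of-ratios scaling. DUT was lost without any 1 siTDP-43 library or siControl library 3 (adjusted p up to 0.074), and TK1 without 6 of the 10 libraries in turn (adjusted p up to 0.12), siTDP-43 1 and 2, siControl 2 and 3 and both wild-type libraries. Of the other nucleotide enzymes, TYMS, the thymidylate synthase, had a log2 difference of -0.08 ± 0.03 (adjusted p = 0.11). RRM1 and RRM2, the subunits of ribonucleotide reductase, had log2 differences of -0.16 ± 0.07 and -0.04 ± 0.08. RRM1 passed with the block (adjusted p = 0.027, against 0.15 without it). Among the regulators, CCNE1, a cyclin E that drives S-phase entry, gave 16.2, 15.4 and 17.3 TPM in siTDP-43 cells, against 19.1, 21.1 and 19.9 TPM in siControl cells (log2 difference -0.28 ± 0.06, adjusted p = 0.0086). CCNE2, the other cyclin E, gave 14.8, 14.03 and 15.8 TPM in siTDP-43 cells, against 13.2, 12.6 and 13.2 TPM in siControl cells. Its siTDP-43 values were all above the controls, with a log2 difference of 0.18 ± 0.06 (adjusted p = 0.059). The genes of the activating factors E2F1 and E2F2 did not pass, nor did UHRF1, which couples DNA methylation to replication, with log2 differences of 0.08 ± 0.06, -0.04 ± 0.05 and -0.03 ± 0.07. Of these 5 genes of S-phase entry and chromatin, CCNE1 alone was called lower (20.0%), near the 19.8% of all tested genes.

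**Figure D2:**
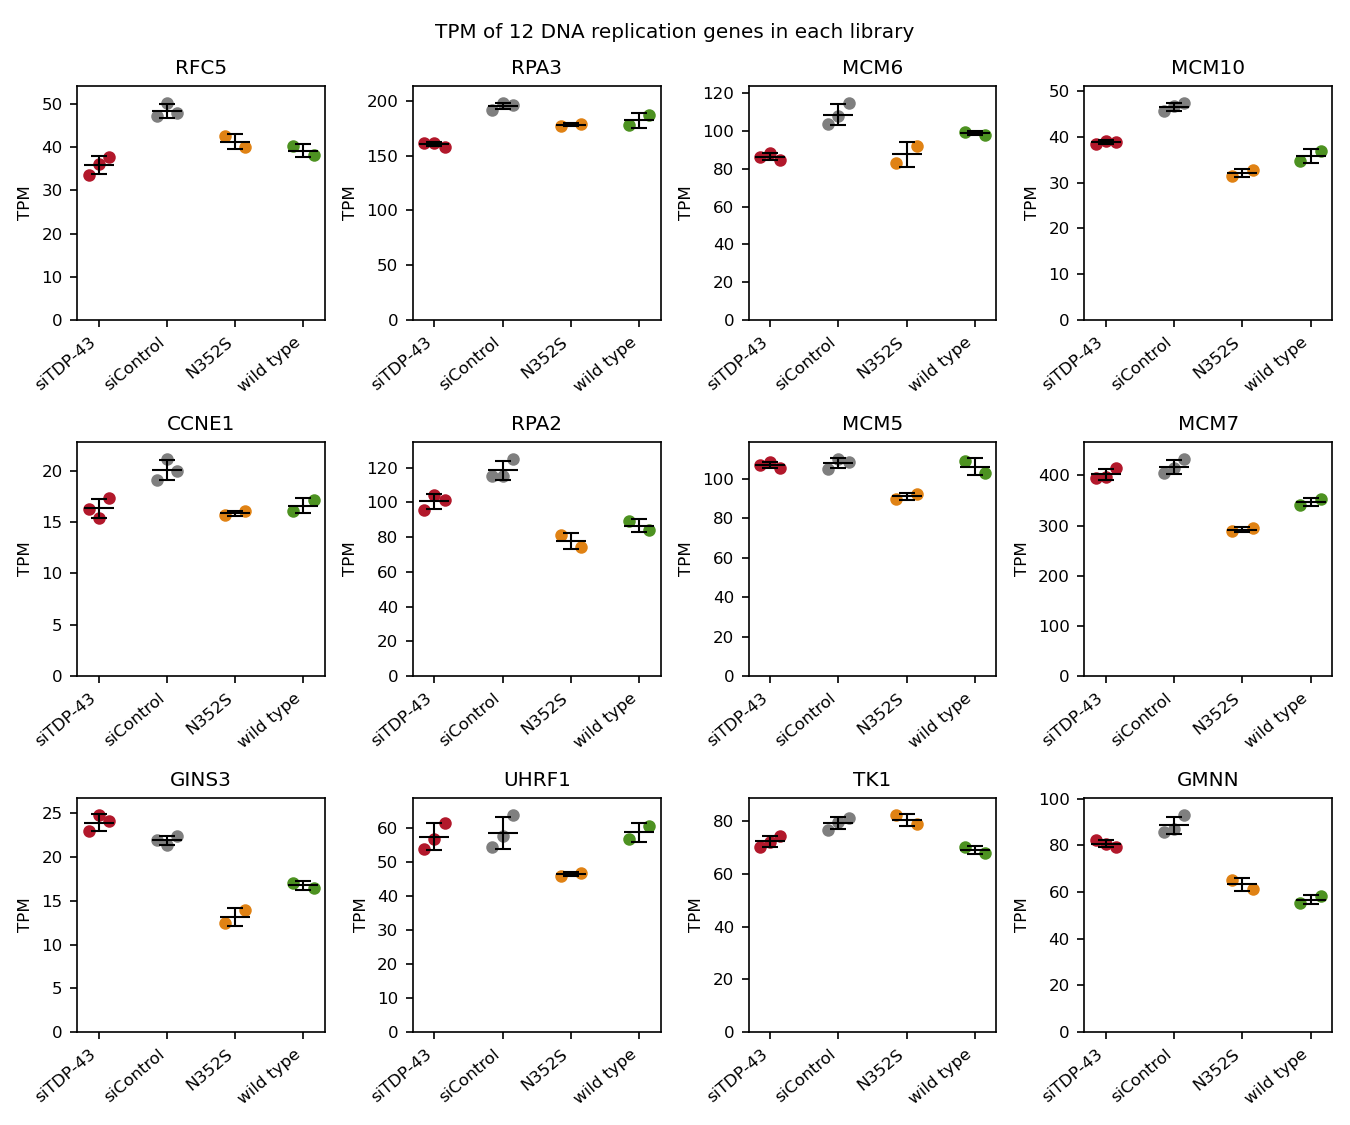
TPM of 12 replication genes in each library, with siTDP-43, siControl, N352S and wild-type groups from left to right. Points are libraries, and the horizontal line and bars are the mean and SD of 3 or 2 libraries. RFC5, RPA3, MCM6 and MCM10 are lower in all siTDP-43 than in all siControl libraries, and MCM5, MCM7, GINS3 and UHRF1 are lower in both N352S than in both wild-type libraries.

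In homozygous N352S cells MCM4, MCM5, MCM7, GINS3 and UHRF1 fell, TK1 rose, and the other replication genes did not pass the test. Of the 48 genes, 5 were lower and 1 was higher in N352S cells, and 42 did not pass. That is 10.4% lower and 2.08% higher, beside 11.9% and 8.28% of all tested genes. The median log2 difference was -0.07, beside -0.03 for all tested genes, and 20 of the 48 differed at an unadjusted p under 0.05. Both N352S libraries lay below both wild-type libraries in 21 genes and above them in 10, beside 34.7% and 25.4% of all tested genes. The counts rest on 2 libraries a group. Without N352S library 81 or either wild-type library, which leaves 1 library in a group, fewer replication genes were lower. The share of all tested genes lower fell as well. The higher count also fell without N352S library 81 or wild-type library 80, as did the share of all tested genes higher. It rose without N352S library 82, where that share fell. Without siControl library 3, which shares the estimate of the spread, 4 replication genes were higher, beside 9.08% of all tested genes. Median-of-ratios scaling gave 4 lower and 4 higher genes, beside 9.73% and 10.8% of all tested genes.

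All 6 genes of the MCM ring were lower in both N352S libraries than in both wild-type libraries, and each had an unadjusted p under 0.05. Of all 17118 tested genes, 34.7% lay lower in both N352S libraries, and 5736 had an unadjusted p under 0.05 in either direction. The median log2 difference of the 6 was -0.20, beside -0.03 for all tested genes. Of the 6, 3 passed the adjusted threshold, beside 11.9% of all tested genes called lower. MCM7 (chromosome 7, 100092728 to 100101940 on GRCh38) gave 288 and 295 TPM in N352S cells, against 341 and 353 TPM in wild-type cells (log2 difference -0.25 ± 0.04, adjusted p = 0.0045). MCM5 gave 89.9 and 92.3 TPM in N352S cells, against 109 and 103 TPM in wild-type cells (log2 difference -0.22 ± 0.04, adjusted p = 0.0084; 0.069 without wild-type library 79). MCM7 stayed called with any library left out (adjusted p of at most 0.036). MCM4 gave 159.7 and 135 TPM in N352S cells, against 196 and 174 TPM in wild-type cells. The values of MCM4 were the most spread of the ring in both groups, and the call was lost with the block and without 7 of the 10 libraries in turn, N352S 82, wild type 79 and wild type 80 among them (adjusted p up to 0.25) (log2 difference -0.33 ± 0.10, adjusted p = 0.049; 0.069 with the block). MCM2 gave 85.2 and 82.3 TPM in N352S cells, against 96.5 and 92.0 TPM in wild-type cells (log2 difference -0.17 ± 0.05, adjusted p = 0.058; 0.039 with the block). MCM3 gave 144 and 136 TPM in N352S cells, against 157 and 152 TPM in wild-type cells (log2 difference -0.14 ± 0.05, adjusted p = 0.066), and MCM6 gave 83.0 and 92.2 TPM in N352S cells, against 99.6 and 98.1 TPM in wild-type cells (log2 difference -0.17 ± 0.06, adjusted p = 0.079). The median of the 6 genes stayed between -0.22 and -0.15 over the alternatives tried, with 1 to 4 of the 6 called. Summed over the ring, TPM came to 849.6 and 833.4 in N352S cells, against 999.2 and 971.8 in wild-type cells. MCM7 overlaps AP4M1 on the opposite strand over 392 bases, and AP4M1 had a log2 difference of 0.10 in N352S cells.

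Outside the ring, GINS3 and UHRF1 fell and TK1 rose in N352S cells. GINS3, a subunit of the GINS complex that the active helicase needs, gave 12.4 and 13.9 TPM in N352S cells, against 17.1 and 16.4 TPM in wild-type cells (log2 difference -0.33 ± 0.07, adjusted p = 0.010). Without N352S library 81 or wild-type library 79 the GINS3 call was lost (adjusted p up to 0.070). The other GINS genes did not pass. GINS1 gave 21.0 and 19.1 TPM in N352S cells, against 16.6 and 17.5 TPM in wild-type cells (log2 difference 0.22 ± 0.08, adjusted p = 0.075), and GINS2 and GINS4 had log2 differences of -0.01 ± 0.07 and -0.11 ± 0.14. UHRF1 gave 46.0 and 46.9 TPM in N352S cells, against 56.8 and 60.8 TPM in wild-type cells (log2 difference -0.33 ± 0.08, adjusted p = 0.021), and its call was lost without any 1 of the 4 genotype libraries (adjusted p up to 0.12). TK1 gave 82.3 and 79.1 TPM in N352S cells, against 70.3 and 68.2 TPM in wild-type cells, the only replication gene called higher in either comparison (log2 difference 0.22 ± 0.05, adjusted p = 0.012; up to 0.073 without N352S library 81 or wild-type library 80). CDT1 had the largest positive difference of the 48 and was not called. It gave 42.5 and 49.7 TPM in N352S cells, against 34.8 and 33.7 TPM in wild-type cells (log2 difference 0.41 ± 0.15, adjusted p = 0.087), and its libraries were also the most variable of the 48 genes in both siRNA groups. GMNN gave 65.1 and 61.4 TPM in N352S cells, against 55.4 and 58.2 TPM in wild-type cells (log2 difference 0.15 ± 0.05, adjusted p = 0.075). MCM10 gave 31.4 and 32.7 TPM in N352S cells, against 34.8 and 36.9 TPM in wild-type cells (-0.15 ± 0.05), at an adjusted p just short of the threshold (0.050 after rounding). None of the primase, polymerase, clamp, clamp loader, RPA or Okazaki genes passed, and their log2 differences lay between -0.20 (RFC4) and 0.21 (RFC1). N352S cells also differed in neuroblastoma state markers. The 9 mesenchymal markers summed to 922 and 967 TPM in N352S cells, against 543 and 562 TPM in wild-type cells. VIM and TWIST1 made up most of that sum, while COL3A1 and YAP1 were lower in N352S cells, and the 7 tested markers had a median log2 difference of -0.05. In the same libraries the 10 noradrenergic markers summed to 4468 and 4725 TPM in N352S cells, against 4909 and 4810 TPM in wild-type cells, with none of the noradrenergic markers at 0. Their part in the replication results was not tested.

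**Figure D3:**
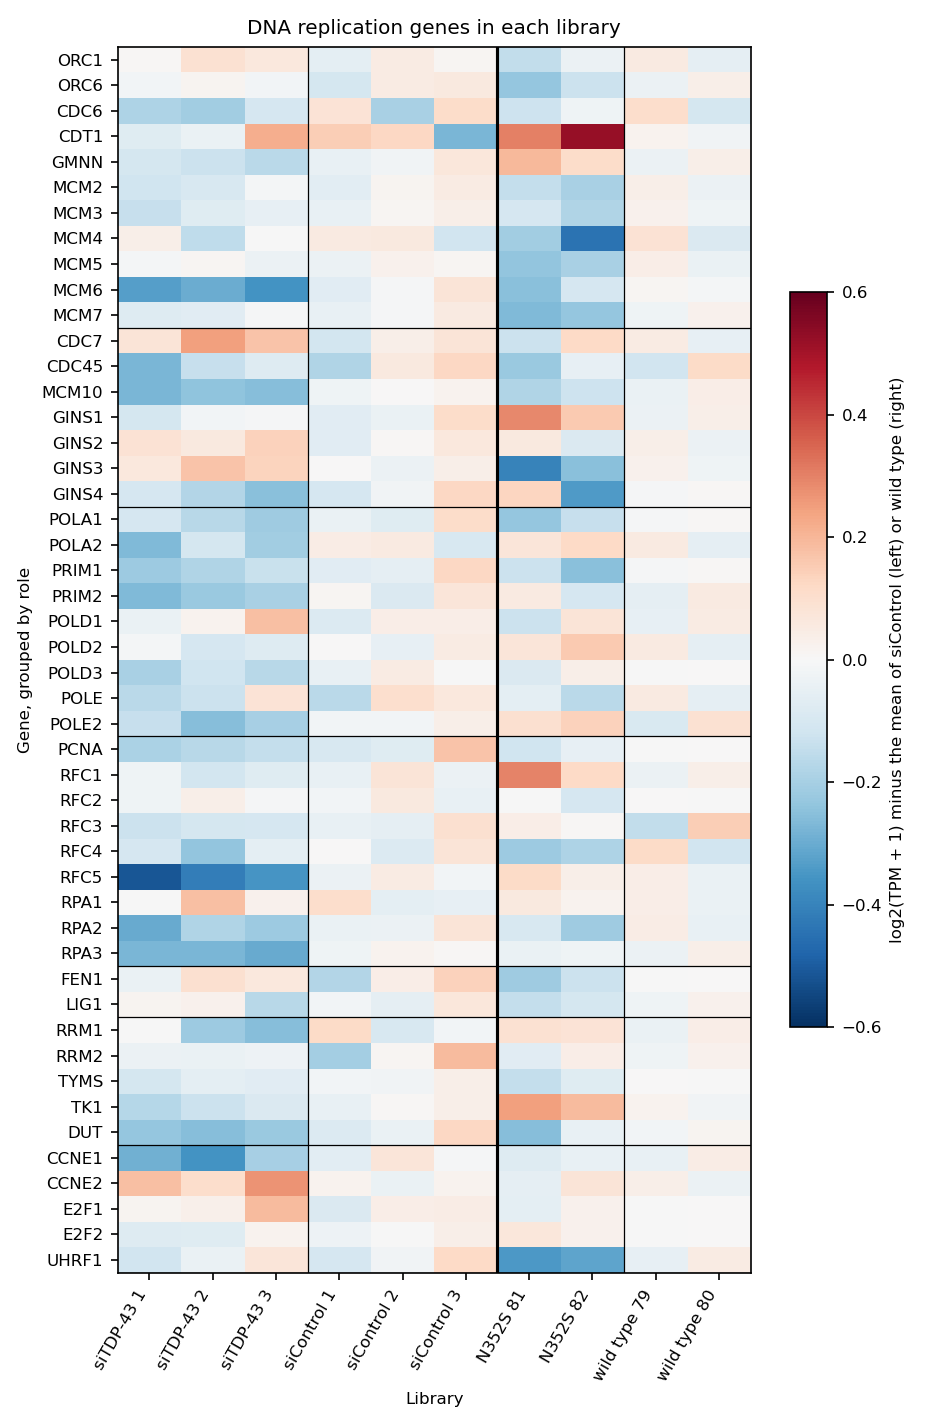
Heat map of log2(TPM + 1) of the 48 replication genes (rows, grouped by role) in the 10 libraries (columns), as the difference from the mean of the siControl libraries for the siRNA experiment and of the wild-type libraries for the genotype experiment. Blue is lower and red is higher on a scale from -0.6 to 0.6, and the rows of MCM2 to MCM7 are blue in both N352S libraries.

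The effects of knockdown and of N352S were compared directly by the difference between them, siTDP-43 minus siControl less N352S minus wild type. This difference passed for 8 of the 48 genes, 5 negative and 3 positive, beside 13.8% and 8.2% of all tested genes. RFC5 (-0.50 ± 0.08, adjusted p = 0.0031), TK1 (-0.35 ± 0.06, adjusted p = 0.0041), RPA3 (-0.25 ± 0.05, adjusted p = 0.0071) and GMNN (-0.28 ± 0.07, adjusted p = 0.018) were more negative in the knockdown. POLE2 was too (-0.31 ± 0.09, adjusted p = 0.040; 0.065 with the block). GINS3 (0.45 ± 0.09, adjusted p = 0.0068), MCM5 (0.20 ± 0.06, adjusted p = 0.030) and MCM7 (0.20 ± 0.06, adjusted p = 0.035) were more negative in N352S cells. Of the 20 alternatives with a value, MCM5 passed in 14, MCM7 in 9 and POLE2 in 6. With the block, 10 genes passed, beside 13% negative and 7.68% positive of all tested genes. Without siControl library 1, 5 passed, beside 13.2% and 7.27%. Fewer than 8 passed without N352S library 81 or wild-type library 79, which leaves 1 library in a group. The shares of all tested genes fell there too. No gene was called lower in both comparisons, 27 had negative differences in both and 18 had opposite signs. Taken singly, 38 of the 48 were negative in the knockdown and 34 in N352S cells. Of all 17118 tested genes, 11054 and 9508 were negative, and 19.8% and 11.9% were called lower. Genes called lower in both comparisons, negative in both or of opposite signs were not counted over all tested genes. The counts for the 48 therefore have no share beside them. MCM6, called only in the knockdown, had a difference between the effects of -0.15 ± 0.08 that did not pass (adjusted p = 0.21). RFC5 gave 42.5 and 40.1 TPM in N352S cells, against 40.2 and 38.1 TPM in wild-type cells, and RPA3 gave 177 and 179 TPM in N352S cells, against 178 and 187 TPM in wild-type cells, so the N352S and wild-type values overlapped for both.

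The starting levels of the 2 experiments were not alike. In 33 of the 48 genes both wild-type libraries lay below all 3 siControl libraries, beside 36.7% of all tested genes. In 4 genes both wild-type libraries lay above, and the share of all tested genes that did so was not counted. MCM4, for example, gave 196 and 174 TPM in wild-type cells, against 272, 274 and 242 TPM in siControl cells. Experiment, transfection and cell stock cannot be told apart in this gap.

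The other replication genes listed were 42 in number. After knockdown 12 of the 42 were lower and 1 was higher, which is 28.6% and 2.38%, beside 19.8% and 6.19% of all tested genes (median log2 difference -0.09, beside -0.08). In N352S cells 5 were lower and 3 higher, which is 11.9% and 7.14%, near the 11.9% and 8.28% of all tested genes (median -0.09, beside -0.03). The remaining origin recognition subunits ORC2 to ORC5 were all lower in every siTDP-43 library, as were 31.7% of all tested genes. All 4 passed, though 3 passed under median-of-ratios scaling, quantile normalization and without siTDP-43 library 2 or 3. ORC2 gave 44.5, 39.5 and 41.3 TPM in siTDP-43 cells, against 54.8, 51.2 and 63.6 TPM in siControl cells (log2 difference -0.42 ± 0.08, adjusted p = 0.0040), whereas ORC1 gave 19.4, 20.6 and 20.2 TPM in siTDP-43 cells, against 18.4, 20.0 and 19.4 TPM in siControl cells and ORC6 gave 62.5, 64.0 and 62.6 TPM in siTDP-43 cells, against 58.8, 65.5 and 65.9 TPM in siControl cells, with overlapping groups in both. ORC3 and ORC5 had log2 differences of -0.20 ± 0.05 and -0.28 ± 0.05. RNASEH2A, a subunit of the nuclease that removes ribonucleotides from DNA, gave 66.8, 67.3 and 68.8 TPM in siTDP-43 cells, against 84.6, 83.2 and 82.8 TPM in siControl cells (log2 difference -0.30 ± 0.03, adjusted p = 4.3e-04). In N352S cells it was higher (log2 difference 0.16 ± 0.04, adjusted p = 0.025; 0.051 with the block). RRM2B, the ribonucleotide reductase subunit that p53 induces, had a log2 difference of -0.41 ± 0.10 (adjusted p = 0.015) after knockdown, and the origin factor TOPBP1 fell in both comparisons (-0.24 ± 0.05 and -0.27 ± 0.06). The fork protein TIMELESS lay near the threshold in both (log2 difference -0.13 ± 0.04, adjusted p = 0.038, and log2 difference -0.15 ± 0.05, adjusted p = 0.047), and those calls held under 9 and 7 of the 21 alternatives. POLE3, a polymerase epsilon subunit, was the gene of this list that rose after knockdown (log2 difference 0.19 ± 0.04, adjusted p = 0.0077). POLD4, the smallest polymerase delta subunit, had the largest difference of the list in N352S cells. It gave 24.6 and 25.2 TPM in N352S cells, against 12.7 and 12.9 TPM in wild-type cells (log2 difference 0.91 ± 0.12, adjusted p = 0.0011), while POLD1 to POLD3 had log2 differences between -0.03 and 0.12. CHTF18, of an alternative clamp loader, was also higher in N352S cells (log2 difference 0.51 ± 0.14, adjusted p = 0.029; called under 16 of the 21 alternatives). The topoisomerase TOP1 (log2 difference -0.22 ± 0.07, adjusted p = 0.044) and the maintenance methyltransferase DNMT1 (log2 difference -0.23 ± 0.07, adjusted p = 0.042) were lower, calls that held under 9 and 11 of the 21 alternatives.

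Regulators of the G1 to S transition changed in both directions. Of 25 tested, 8 were lower, 5 higher and 12 not called after knockdown, which is 32.0% and 20.0%, beside 19.8% and 6.19% of all tested genes. In N352S cells 6 were lower, 3 higher and 16 not called, which is 24% and 12%, beside 11.9% and 8.28%. CDKN1A, the kinase inhibitor p21, gave 55.9, 55.4 and 67.5 TPM in siTDP-43 cells, against 30.5, 31.3 and 38.9 TPM in siControl cells (log2 difference 0.81 ± 0.10, adjusted p = 7.2e-04), and 72.0 and 69.5 TPM in N352S cells, against 45.2 and 49.9 TPM in wild-type cells (log2 difference 0.56 ± 0.13, adjusted p = 0.014). RB1, the retinoblastoma protein, gave 38.9, 38.8 and 42.5 TPM in siTDP-43 cells, against 57.8, 64.3 and 65.6 TPM in siControl cells (log2 difference -0.63 ± 0.06, adjusted p = 1.5e-04), and in N352S cells had a log2 difference of 0.05 ± 0.07. CDK6, a kinase that phosphorylates the retinoblastoma protein, was lower after knockdown (-0.51 ± 0.05) and higher in N352S cells (0.33 ± 0.06). Its partner cyclin D1, CCND1, was higher in both (0.17 ± 0.05 and 0.30 ± 0.06), and MYC, a growth factor-induced transcription factor, was lower in both (-0.40 ± 0.05 and -0.56 ± 0.06). MYCN, its relative in neuroblasts, was lower after knockdown (-0.49 ± 0.07). E2F3 passed in neither comparison (0.07 ± 0.06 and -0.12 ± 0.07), and E2F4, an E2F found in repressive complexes, was higher after knockdown (0.14 ± 0.04) and lower in N352S cells (-0.27 ± 0.05). The knockdown calls of CCND1 and E2F4 held under 14 and 13 of the 21 alternatives. In N352S cells CDK4 was lower (-0.19 ± 0.03).

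Most genes of G2 phase and mitosis were lower after knockdown, and several were higher in N352S cells. Of 24 such genes, 23 were lower and none was higher after knockdown, with a median log2 difference of -0.36, beside 12 of 48 and -0.08 for the replication genes. In N352S cells none of the 24 was lower and 7 were higher, with a median of 0.14, beside 5 lower and 1 higher and -0.07. Of all tested genes, 19.8% were lower and 6.19% higher after knockdown (median -0.08). In N352S cells 11.9% of all tested genes were lower and 8.28% higher (median -0.03). Over the alternatives tried, the counts of G2 and mitosis genes ran from 19 to 24 lower after knockdown and from 5 to 12 higher in N352S cells. Their summed TPM was 2209, 2220 and 2175 in siTDP-43 cells, against 2754, 2744 and 2857 in siControl cells, and 2409 and 2350 in N352S cells, against 2079 and 2101 in wild-type cells. The 48 replication genes summed to 4279, 4306 and 4373 TPM in siTDP-43 cells, against 4487, 4600 and 4788 in siControl cells, and to 3692 and 3751 in N352S cells, against 3954 and 3938 in wild-type cells. The sums of neither list overlapped between the groups of either experiment, and the median of the 48 after knockdown was that of all tested genes (-0.08 for both) and became 0.01 under median-of-ratios scaling. MKI67, a proliferation marker that peaks in G2 and mitosis, gave 75.8, 74.5 and 75.9 TPM in siTDP-43 cells, against 98.2, 102 and 103 TPM in siControl cells (log2 difference -0.42 ± 0.04, adjusted p = 1.3e-04), and 76.2 and 74.8 TPM in N352S cells, against 76.9 and 71.7 TPM in wild-type cells, where it did not pass (0.02 ± 0.05). PTTG1, the securin, gave 160.3, 155 and 149.8 TPM in siTDP-43 cells, against 208, 200.9 and 193 TPM in siControl cells (log2 difference -0.37 ± 0.04, adjusted p = 3.0e-04), and 255 and 243 TPM in N352S cells, against 178 and 177 TPM in wild-type cells (log2 difference 0.48 ± 0.05, adjusted p = 2.0e-04). The lists were compared by counts and medians, and no test of one list against the other was made.

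**Figure D4:**
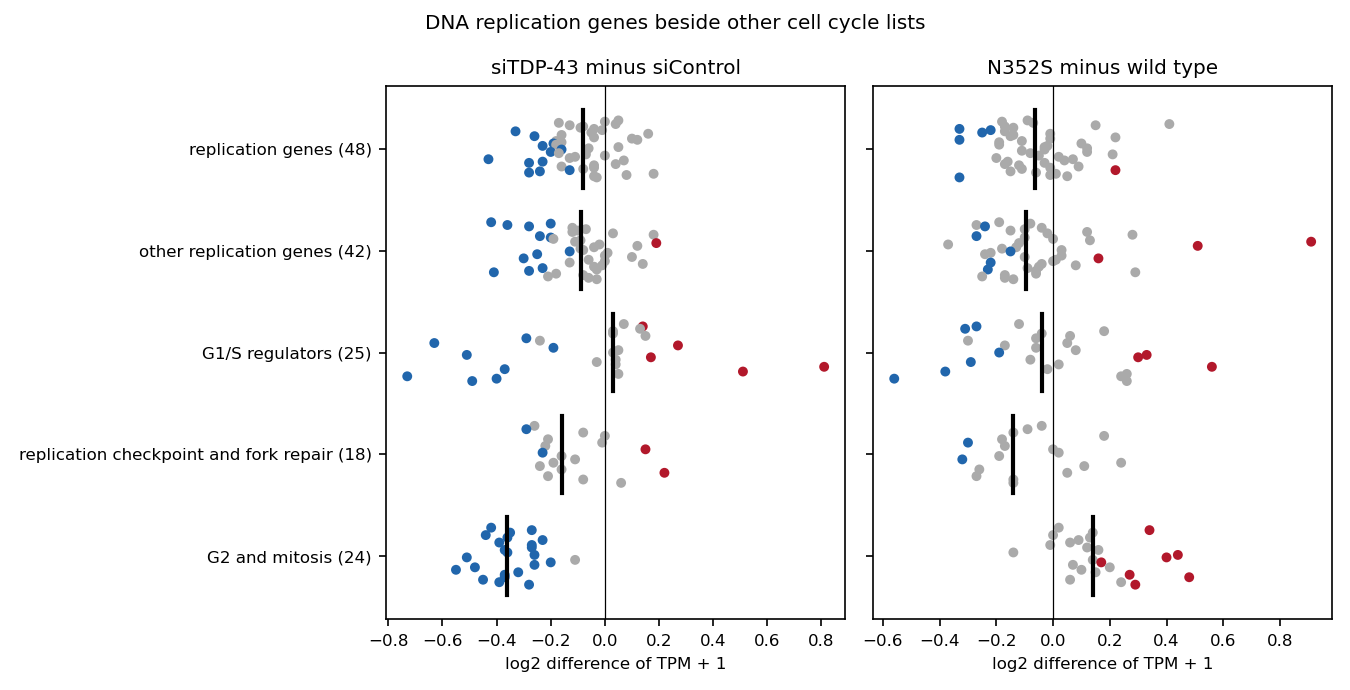
Log2 difference in TPM + 1 of each tested gene in 5 lists, for siTDP-43 minus siControl (left) and N352S minus wild type (right). Points are genes, blue where lower and red where higher at adjusted p under 0.05, and black bars are list medians. The 24 G2 and mitosis genes center at -0.36 on the left and 0.14 on the right, while the 48 replication genes center at -0.08 and -0.07.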

How the data were processed

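RNA of 10 SH-SY5Y samples was isolated with Trizol and sequenced from TruSeq libraries, per the labels' protocols. The deposited table holds TPM per gene, which the authors made with STAR, RSEM and build hg38 (per the submitters' processing notes). Versions, annotation and strand setting were not given in the sources used here. TPM are shares of each library, so a rise of abundant transcripts lowers all other values, and they keep no depth.

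The 17118 genes that averaged 1 TPM or more were fitted as log2(TPM + 1) from the deposited values in limma 3.58.1 (R 4.3.3), with 4 group means, a mean-variance trend and 6 residual degrees of freedom, and p-values were adjusted by Benjamini-Hochberg over all tested genes. Log2 differences are on this scale, which understates changes of low genes, and values after ± are the fit's SE for them and SDs for TPM. Positions came from GENCODE release 29 (GRCh38), which holds 57836 of the 58174 identifiers, and promoter windows from RefSeq. Figures were drawn with matplotlib 3.10.9.

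By their titles the siRNA libraries share the numbers 1 to 3. Same-numbered libraries deviated together from their group means (correlations of 0.336, 0.137 and 0.198), so the numbers may pair them. Correlations between libraries of unlike number were not computed, so the pairing is not settled. The fit reported has no term for the number, and a blocked fit with that term is an alternative, given beside a result where it changes the call. The genotype libraries share no number. The 21 alternatives covered the pseudocount, the filter, scaling, removal of mitochondrially encoded genes, the fit's settings, the block and each library left out in turn.

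The 48 genes and the other lists were chosen with earlier results of these data known. Named genes are TARDBP, the 48 genes, up to 8 other replication genes per comparison and up to 3 genes per comparison of each other list by smallest adjusted p, and CDKN1A, RB1, E2F3, CCND1 and MYCN. The values of some genes taken by this rule are not reported here. Genes that overlap these are named for that reason, and TH for its low values.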

Additional observations from a re-analysis of the deposited data

Results flagged for a closer look

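The effect of knockdown differed from the effect of N352S, by the test of the difference itself, for the genes named here. Values are log2 differences, the effect of siTDP-43 minus siControl less that of N352S minus wild type, at adjusted p under 0.05. Among the replication genes these were RFC5 at -0.50, TK1 at -0.35, POLE2 at -0.31, GMNN at -0.28 and RPA3 at -0.25. They were also GINS3 at 0.45, MCM5 at 0.20 and MCM7 at 0.20. POLE2, MCM5 and MCM7 passed in only 6, 14 and 9 of the 20 alternatives that give this difference. TARDBP itself differed by -1.27.

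Of the other replication and checkpoint genes, POLD4 differed by -1.01, RRM2B by -0.70 and RNASEH2A by -0.47. POLE3 differed by 0.31 and RAD1, a checkpoint clamp subunit, by 0.29. Of the regulators of S-phase entry, CDK6 differed by -0.83, MYCN by -0.75 and RB1 by -0.68. E2F4 differed by 0.41 and CDK4 by 0.22. Of the G2 and mitosis genes named, PTTG1 differed by -0.85, CDC20 by -0.70, TOP2A by -0.61, CCNB2 by -0.49 and MKI67 by -0.44.

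Among the markers of cell state, VIM differed by -1.15, EPCAM by -0.79 and PHOX2A by -0.65. COL3A1 differed by 1.97, CHGA by 0.90 and GATA3 by 0.31. Groups of 2 or 3 libraries are too small to examine single libraries as outliers.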

How the results depend on the processing

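No result changed direction after passing its test. Of the replication genes lower after knockdown, 12 in all, 6 were counted with no filter on low TPM (38387 genes tested), 6 under median-of-ratios scaling, 4 under quantile normalization and 7 without mitochondrially encoded genes. The shares of all tested genes lower in these settings were 6.82%, 12.1%, 11.8% and 15.3%, beside 19.8% in the fit reported. Leaving out each library in turn gave 7 to 12 lower replication genes, beside 14.6% to 20% of all tested genes. The count of higher replication genes was 0, and became 3 under median-of-ratios scaling, 3 under quantile normalization and 1 without mitochondrially encoded genes, and stayed 0 with each library left out. Under those scalings and without mitochondrially encoded genes, 11.4%, 11.3% and 7.99% of all tested genes were higher. In N352S cells the 5 lower and 1 higher genes became 2 and 0 when only the compared groups were fitted, and 4 genes were higher under median-of-ratios scaling and 3 under quantile normalization. Of all tested genes, 5.78% were lower and 5.26% higher when only the compared groups were fitted. Under the 2 scalings 10.8% and 9.71% were higher. Leaving out a siRNA library gave at most 6 lower and 4 higher replication genes. The shares of all tested genes were then at most 12.8% and 9.08%. Without N352S library 81 or either wild-type library, which leaves 1 library in a group, fewer replication genes and a smaller share of all tested genes were lower. The 8 genes whose effects differed became 5 without a trend in the fit, and 4 to 10 with each library left out. A fit of only the compared groups gives no value for this difference. RFC5, RPA3, MCM6 and MCM10 were called after knockdown, and MCM7 in N352S cells, under all 21 alternatives. The cause of these shifts was not tested, except that no filter raises the number of genes tested and a left-out library lowers the number of samples. Because no depth is known, precision is limited to the spread of 2 or 3 libraries.

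With the replicate number as a block, 13 replication genes were lower and 0 higher after knockdown, and 10 of the 12 calls were kept. Of all tested genes, 19% were lower and 6.08% higher. The counts in N352S cells were 5 and 1, beside 10.8% and 7.9% of all tested genes. In the same fit 10 effects differed, beside 13% of all tested genes with a negative difference and 7.68% with a positive one. Beside the changes given with the genes above, the block brought POLA2, RRM1 and UHRF1 past the threshold for the difference between effects.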

Other observations

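Genes of the replication checkpoint and of fork repair mostly did not pass. Of 18 tested, 2 were lower and 2 higher after knockdown, which is 11.1% each, beside 19.8% and 6.19% of all tested genes. In N352S cells 2 were lower (11.1%, beside 11.9%) and none was higher (beside 8.28%). WEE1, the kinase that holds back mitosis, averaged 55.4 ± 1.33 TPM in siTDP-43 cells and 50.0 ± 1.79 TPM in siControl cells (SD, n = 3 each; log2 difference 0.15 ± 0.04, adjusted p = 0.026). FANCA, of the crosslink repair core complex, was also higher (log2 difference 0.22 ± 0.04, adjusted p = 0.0066). BRCA1, which protects stalled forks, averaged 36.8 ± 2.88 TPM in siTDP-43 cells and 43.4 ± 2.70 TPM in siControl cells (log2 difference -0.23 ± 0.07, adjusted p = 0.030; called under 13 of the 21 alternatives). RAD1, a subunit of the checkpoint clamp, averaged 29.1 ± 1.05 TPM in N352S cells and 36.0 ± 0.445 TPM in wild-type cells (SD, n = 2 each; log2 difference -0.30 ± 0.05, adjusted p = 0.0045).

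Markers of neuroblastoma cell state changed in both directions. Of 10 noradrenergic markers, 2 were lower and 5 higher after knockdown, and 3 were lower and 1 higher in N352S cells. Of 7 tested mesenchymal markers, 2 were lower and 2 higher after knockdown, and 2 were lower and 3 higher in N352S cells. Of all tested genes, 19.8% were lower and 6.19% higher after knockdown, and 11.9% and 8.28% in N352S cells. COL3A1, a fibrillar collagen, averaged 4.62 ± 0.255 TPM in N352S cells and 13.2 ± 1.92 TPM in wild-type cells (log2 difference -1.34 ± 0.09, adjusted p = 2.2e-05), and YAP1, a transcriptional coactivator, was also lower (log2 difference -0.71 ± 0.13, adjusted p = 0.0043). VIM, an intermediate filament, averaged 688 ± 27.3 TPM in N352S cells and 362 ± 1.36 TPM in wild-type cells (log2 difference 0.92 ± 0.04, adjusted p = 2.1e-06). Of the markers of other cells, 2 of 7 were tested, and EPCAM, an epithelial adhesion protein, averaged 4.48 ± 0.0566 TPM in N352S cells and 1.83 ± 0.304 TPM in wild-type cells (log2 difference 0.95 ± 0.15, adjusted p = 0.0027).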
